A study of Mus musculus with 4 samples.

Results

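Enteric neuron and glia genes were followed in the colonic mucosa of mice between juvenile and young adult life. The group was set by name and holds 8 genes: Tubb3, Elavl4, Uchl1 and Vip of neurons, S100b, Gfap and Sox10 of glia, and the receptor gene Ret. Probes were assigned through the transcript accession in the scanner files. Of the 8 genes, 7 had a probe, with 9 probes among 41174 gene probes on the array, and 4 genes (S100b, Tubb3, Elavl4 and Uchl1) were bright enough to be tested among 20822 genes and transcripts. No probe was matched to Sox10, and it was not analysed here.

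Each of 4 arrays, named a, b, e and k as in the labels, compared RNA of a mouse aged 90 postnatal days (P90) with RNA of a mouse aged 30 postnatal days (P30). All RNA came from C57BL/6 mice with no other allele or treatment named, and the tissue was colonic mucosa sheared off with a microscope slide. The dye Cy5 marked P30 RNA on arrays a, b and k and P90 RNA on array e, and Cy3 marked the other RNA. The labels call the 4 comparisons independent without saying that every animal was used once, so a p-value here reflects how far these 4 pairs scatter, which may be partly technical.

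The nerve cells of the gut form a network of ganglia in the wall of the intestine, most of them in plexuses between and beneath the muscle layers, and send fibres into the mucosa. Their cell bodies are accompanied by enteric glia, which also reach into the lamina propria around the crypts. Both descend from neural crest cells, whose survival and migration into the gut depend on GDNF acting on the receptor tyrosine kinase Ret and on endothelin 3 acting on Ednrb. A scraping of mucosa is mainly epithelium and lamina propria, with nerve fibres and glia as minor parts. Fibres carry little of the neuron's messenger RNA, most of which lies in the cell body. In such bulk samples fewer cells of a type and less RNA per cell cannot be told apart.

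The sequence upstream of the gene start is shown for 2 members that differed in detection: Tubb3, whose spots were all well above background, and Vip, whose probe was mostly at background. Both are the 250 bases before the start in RefSeq on GRCm38.p6, 5′ to 3′ on the strand of the gene, and 6 of the 8 members had such a sequence. Capitals mark the TATA box TATAAA, the GC box GGGCGG and the CRE core TGACGTC on either strand; the E-box CANNTG and the Sox motif ACAAAG were also searched on both strands and were not found in either window.
Tubb3: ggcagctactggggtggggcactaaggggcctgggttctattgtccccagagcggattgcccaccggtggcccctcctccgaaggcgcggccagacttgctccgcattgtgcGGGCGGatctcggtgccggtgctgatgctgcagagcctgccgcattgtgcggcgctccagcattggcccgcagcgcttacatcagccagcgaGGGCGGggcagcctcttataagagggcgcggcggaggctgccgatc
Vip: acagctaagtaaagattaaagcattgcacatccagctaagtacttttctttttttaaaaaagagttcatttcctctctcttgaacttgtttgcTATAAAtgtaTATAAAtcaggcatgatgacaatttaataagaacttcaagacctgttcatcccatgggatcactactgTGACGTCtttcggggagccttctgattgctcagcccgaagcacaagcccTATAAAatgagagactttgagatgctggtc
The Tubb3 sequence lies at chr8:123411303-123411552 on the plus strand and the Vip sequence at chr10:5638968-5639217 on the plus strand. The Tubb3 window had 68.0% G and C, more than 87.8% of the 32851 RefSeq windows of this length, and held 2 GC boxes, a motif found in 32.7% of all windows. The Vip window had 38.4% G and C, with 9.05% of windows lower and a median of 52.4%. It held 3 copies of TATAAA, found in 12.4% of windows, and 1 copy of TGACGTC, found in 2.78%. The E-box was found in 66.2% of all windows and the Sox motif in 16.5%. These matches describe the letters of the windows, and the arrays do not measure them.

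Across the arrays, 55.6% to 69.3% of gene spots were well above background in the P90 channel and 64.6% to 71.0% in the P30 channel. The median spot in the Cy5 channel had a signal between 109.5 and 142.5 over a local background of 68. The median spot in the Cy3 channel had a signal between 72 and 114 over a background of 39 to 42. The direction of the ratios differed between arrays. Over the genes tested, which are not independent replicates, array b correlated negatively with a (r = -0.31; -0.303 over all probes), e (r = -0.27) and k (r = -0.19), whereas a, e and k correlated positively with one another (r = 0.31 to 0.60). Because the dyes are named in the labels for each array, the labelled direction was kept for b, and b turned is among the alternatives. Of 14 colonic epithelium genes listed, 13 had a probe and all 13 passed the filter on dim probes. The number of arrays limits the precision of every value below.

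Of the nerve and glia genes, Tubb3 was well above background in all 8 channels (4 arrays, each with P90 and P30), as was S100b, and Uchl1 was so in 7. Elavl4 reached this mark in 4 channels through 1 of its 2 probes, Vip in 3 and Gfap in 3 through 1 of its 2 probes. Ret, on a probe printed 10 times per array, did not reach it in any. None of the 4 genes tested differed between P90 and P30 after adjustment, as was the case for every gene tested (0 of 20822, 0%, limma with Benjamini-Hochberg adjustment at 0.05). At an unadjusted p below 0.05, 0 of the 4 members passed, against 1642 of all genes (7.89%). None of the 4 had the same direction on all 4 arrays, which 2941 genes (14.1%) had, 1285 higher (6.17%) and 1656 lower (7.95%) at P90.

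**Figure D1:**
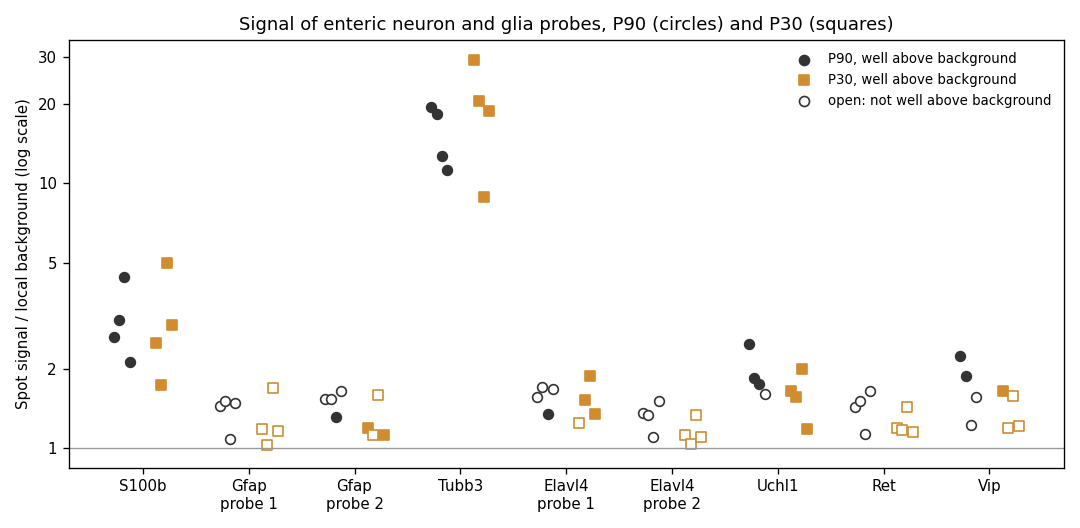
Spot signal divided by its local background (log scale) for the 9 probes, with P90 as circles and P30 as squares, 1 point per array and the mean of the spots where a probe was printed 10 times. Filled points were marked well above background by the scanner software; Tubb3 lies between 8.90 and 29.4, S100b between 1.74 and 5.02, and the other probes lie below 2.5.

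Tubb3 encodes class III beta-tubulin, a microtubule subunit of nerve cells and the usual marker of enteric nerve fibres. Its probe A_51_P381381, for transcript NM_023279, was printed 10 times on each array, and all 40 spots were well above background at either age. The P90 signal, averaged over the 10 spots, was 845.3, 773.2, 842.3 and 437 for arrays a, b, e and k, over backgrounds of 39 to 66.6. The P30 signal was 2053, 1403, 368.4 and 1304 in the same order, over backgrounds of 41.4 to 69.95. The Cy5 channel thus gave the higher raw signal on every array, whichever age it held. Which cells of the scraping gave the Tubb3 signal was not tested.

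After normalization the log2 P90/P30 of Tubb3 was 0.32, -1.0, 1.36 and -0.69 for arrays a, b, e and k. These correspond to a P90 level 1.24, 0.50, 2.58 and 0.62 times that of P30. The arrays were split, with a and e above 0 and b and k below it. The mean was -0.0021 ± 1.07 (SD, n = 4; limma adjusted p = 0.999), with a 95% interval from -1.71 to 1.70. The normalized log2 level was 9.77 ± 0.68 at P90 and 9.77 ± 0.90 at P30 (SD, n = 4), and the values of the ages overlapped. With a dye term beside the mean, the mean was 0.45. Only array e has P90 in Cy5, so in that fit e weighs as much as a, b and k together. The limma adjusted p ran from 0.414 to 1.0 over all alternatives.

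The spread of Tubb3 was far larger between arrays than between spots. On array a the 10 spots ranged from 0.27 to 0.36 on the log2 scale, on b from -1.07 to -0.94, on e from 1.27 to 1.43 and on k from -0.77 to -0.60. The spots of any array did not overlap with those of another, and the SD over spots was 0.029 to 0.053, against an SD of 1.07 over arrays. That SD over arrays was larger than in 95.5% of the genes tested, whose median SD was 0.35. The near-zero mean of Tubb3 is thus the average of 4 pairs that differed by more than the scatter of the spots, which share 1 labelled RNA per channel and leave out labelling error.

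**Figure D2:**
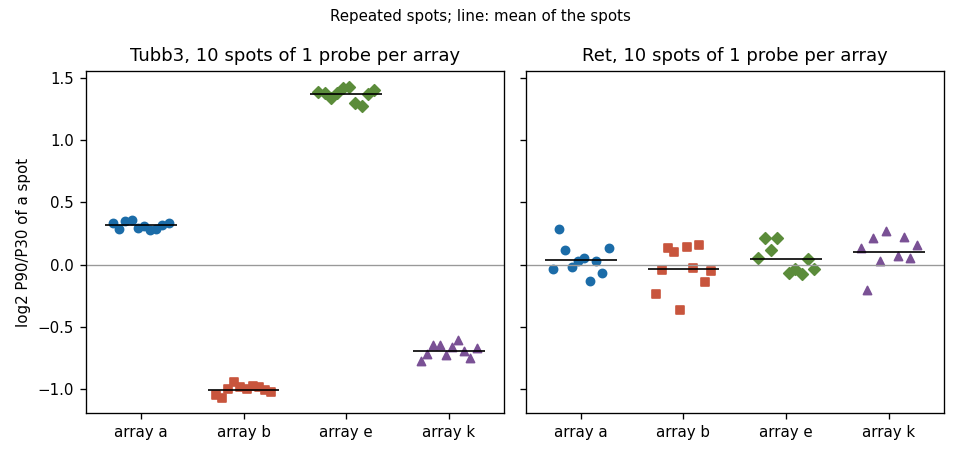
Log2 P90/P30 of the repeated spots of the Tubb3 probe (left) and the Ret probe (right) on each array, with a line at the mean of the spots. The Tubb3 spots of an array cluster within a narrow range (-1.07 to -0.94 on b, 1.27 to 1.43 on e), while the Ret spots, which are at background, scatter around 0 on every array.

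The genes nearest to Tubb3 in their 4 ratios were looked up after its values had been seen. Among 11896 genes with a symbol and well above background in both channels on all arrays, Actg2, the gamma actin of visceral smooth muscle, was the nearest (Euclidean distance 0.37), with log2 P90/P30 of 0.31, -0.85, 1.16 and -0.42 on a, b, e and k. Mical2, Ankrd9, Ghr and Adamts15 followed, at distances of 0.45 to 0.56 over the 4 arrays. Acta2, the smooth muscle actin of near-identical sequence, had -0.12, -0.56, 1.0 and -0.33, and the separate values of these paralogs are uncertain. Of the 12 smooth muscle markers tested, only Actg2 had the signs of Tubb3 on the 4 arrays (8.33%, against 8.32% of all other genes), and the median of the list was 0.78 on array b, where Tubb3 was at -1.0. Of the other 13 pan-neuronal genes, 3 had these signs (23.1%), as had 3 of 12 GDNF and Ret signalling genes (25%). The transmitter, receptor and glial lists had 14.3%, 11.1% and 7.14%, and the remaining nerve lists 0. The 3 pan-neuronal genes, named after their values were seen, were Elavl4, Stmn2 and Prph. Their probes were dim, with mean log2 intensities of 6.21 to 6.43. Elavl4 and Stmn2 were both at only -0.014 on array k. The 3 GDNF and Ret signalling genes, named in the same way, were Pspn, Gfra1 and Dok4. Pspn and Gfra1 were also dim, at 6.26 and 6.17, and Dok4, at 12.6, was at only -0.020 on array b.

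Uchl1, a ubiquitin hydrolase abundant in nerve cells and known to histologists as PGP9.5, was measured by probe A_52_P24308. Its P90 signal was 109, 81, 116.5 and 66 for arrays a, b, e and k, and its P30 signal 103, 108, 78 and 90. The P90 channel of array k was not well above background. The log2 P90/P30 was 1.0, -0.30, 0.40 and 0.039 in the same order. Array a alone showed a difference of 2.0-fold, and b lay on the other side of 0. The mean was 0.28 ± 0.56 (SD, n = 4; limma adjusted p = 0.780), with a 95% interval from -0.60 to 1.17. With the sign of array b turned it was 0.44 and passed an unadjusted p of 0.05 but not the adjusted test (limma adjusted p = 0.209; 0.209 to 1.0 over all alternatives). Without array a it was 0.045, and without b 0.48.

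Elavl4, which encodes the neuronal RNA-binding protein HuD, had 2 probes for the same transcript. Probe A_51_P503722 gave signals of 64, 65, 93 and 67 at P90 and 82, 94, 74 and 88 at P30 on arrays a, b, e and k. It was well above background in 1 of 4 P90 channels and 3 of 4 P30 channels, and likewise in 1 of 4 Cy3 and 3 of 4 Cy5 channels, so that its detection moved with the dye as well as with the age. It thus passed the filter on dim probes only through P30. Its log2 P90/P30 was 0.15, -0.35, 0.045 and -0.014 in the same order, with a mean of -0.041 ± 0.22 (SD, n = 4; limma adjusted p = 0.967). The other probe, A_51_P503729, was not well above background in any channel, with signals from 54 to 77.

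Vip encodes vasoactive intestinal peptide, the transmitter of inhibitory motor neurons and of the secretomotor neurons that supply the mucosa. Its P90 signal was 89, 86, 81 and 60 for arrays a, b, e and k, and its P30 signal was 117, 80, 63 and 74. Probe A_51_P368313 was well above background at P90 on arrays a and b and at P30 on array a alone, so array a was the only one with a ratio measured on both sides. That ratio was 0.63 on the log2 scale, or 1.55-fold higher at P90. The other arrays gave 0.24, 0.080 and -0.045 for b, e and k. The probe did not pass the filter on dim probes. Without the filter its mean was 0.23 ± 0.30 (SD, n = 4; limma adjusted p = 0.818 over 32665 genes).

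Among the glial genes, S100b, a calcium-binding protein used as the standard marker of enteric glia, was well above background in all 8 channels. Its P90 signal was 113.5, 147, 285 and 87 for arrays a, b, e and k, over backgrounds of 41 to 64. Its P30 signal was 178, 113, 226 and 202 in the same order. The highest normalized level at either age was on array e (log2 levels of 8.22 at P90 and 7.73 at P30), and the ages overlapped. The log2 P90/P30 was 0.63, 0.28, 0.50 and -0.53 for a, b, e and k. Array k thus lay opposite to the other 3. The mean was 0.22 ± 0.52 (SD, n = 4), a 1.16-fold ratio with a 95% interval from -0.61 to 1.05 on the log2 scale (limma adjusted p = 0.834). Without array k it was 0.47 and passed an unadjusted p of 0.05 but not the adjusted test (limma adjusted p = 0.986; 0.664 to 1.0 over all alternatives). It was 0.083 without array a, 0.13 without e, 0.078 with b turned and 0.020 with median centring in place of loess.

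Gfap, the intermediate filament of astrocytes and of part of the enteric glia, had 2 probes for different transcripts. Probe A_52_P52303, for NM_001131020, was not well above background in any channel, with signals from 58 to 79. Probe A_52_P540991, for NM_010277, was so at P90 on array e and at P30 on arrays a and k, which are Cy5 channels in all 3 cases, and its signals ran from 63 to 88. Its log2 P90/P30 of 0.12 ± 0.067 (SD, n = 4) thus rests on no array with both channels above background, and it did not pass the filter (limma adjusted p = 0.799 without the filter).

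Ret encodes the receptor through which GDNF and its relatives act on neural crest cells and on adult enteric neurons. Its probe A_51_P324191 was printed 10 times per array. At P90 3 of 40 spots were well above background, and at P30 also 3 of 40, so that the probe stayed at background at both ages. The mean signal over the spots was 60.7 to 64.4 in Cy3 and 76.95 to 78.8 in Cy5, over backgrounds of 39 to 68.1. The spot ratios ran from -0.36 to 0.29 over the 4 arrays and had an SD of 0.11 to 0.17 within an array. No age difference is given for a probe that is at background in both channels.

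**Figure D3:**
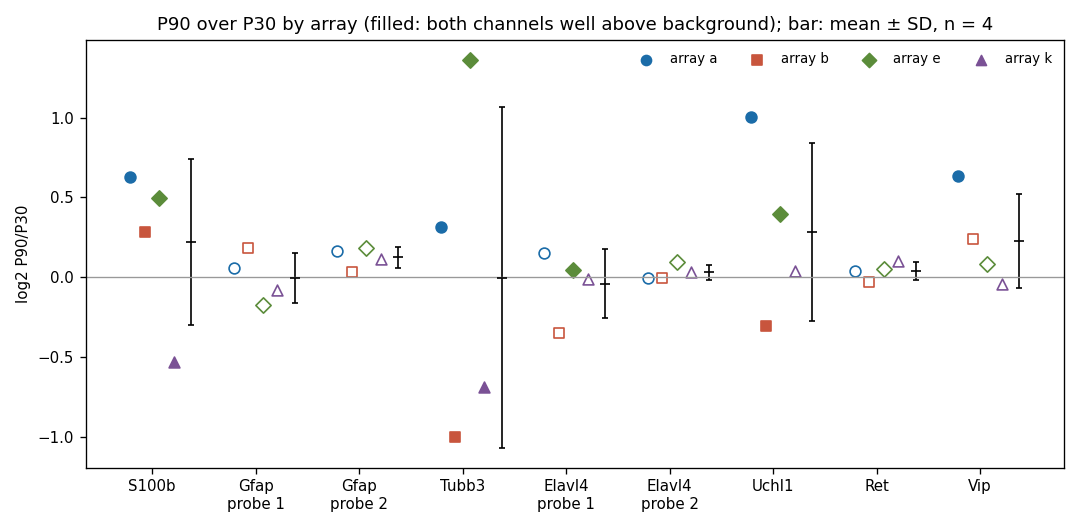
Log2 P90/P30 of the 9 probes on arrays a, b, e and k, with the mean ± SD (n = 4) as a bar beside each probe; filled points have both channels well above background. Tubb3 spans -1.0 to 1.36, and S100b, Uchl1 and Elavl4 each have arrays on both sides of 0.

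Over the 4 genes tested, the median log2 P90/P30 was 0.11, against -0.019 over all genes, and 2 means lay above 0 and 2 below it. By array the median of the 4 was 0.47, -0.33, 0.45 and -0.27 for a, b, e and k, where all genes had medians from -0.042 to -0.0041. The members, of which Tubb3 is 1, thus had lower medians on b and k than on a and e. The 5 genes whose ratios were nearest to these medians, among 11895 genes, were Olfr1263, Syk, Tor1a, Med13 and Psors1c2, at Euclidean distances of 0.16 to 0.18 over the 4 arrays.

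Other nerve and glia genes were read from 8 lists by role, which besides the members held 120 genes, of which 118 had a probe and 81 were tested. None passed the limma test after adjustment. At an unadjusted p below 0.05, 5 of the 81 were higher and 0 lower at P90. Among all 20822 genes 541 were higher and 1101 lower, which is 7.89% for both directions together. Of the 81, 52 had a mean above 0 and 29 below, with a median of 0.051, against 9499 above and 11323 below over all genes and a median of -0.019. Under 5 of 21 alternatives this median of 0.051 moved by at least its SD between arrays, so it depends on the processing. On all 4 arrays 9 of the 81 were higher and 1 lower, against 6.17% and 7.95% of all genes. These shares of all genes are the background for the counts on all arrays in each list below. The direction counts include genes that passed the filter on dim probes at 1 age only, some at the age where they were higher. Named after their values were seen, Prph and Calcb passed only through P90 with means above 0. Slc18a3 passed only through P30 with a mean below 0, and Syt1 and Map2 only through P30 with means above 0.

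Structural and synaptic genes of neurons had 14 members tested and a median of 0.095, with 11 means above 0 and 3 below, and 3 genes were higher and 0 lower on all arrays. Their median was 0.28, 0.0070, 0.36 and 0.029 for a, b, e and k. Of the 20 on the array, 7 were well above background in all 8 channels and 4 in none: Elavl2, Snap25, Gap43 and Dcx. Syn1, which encodes a protein of synaptic vesicles, was low on b and high on e, with -0.076, -1.35, 1.66 and 0.018 for a, b, e and k and a mean of 0.065 ± 1.23 (SD, n = 4).

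Transcription factors of enteric neurons had 8 genes tested and a median of -0.093, with 3 means above 0 and 5 below. None kept 1 direction on all arrays. Tbx3 (-0.78 ± 1.88) and Hoxb5 (-0.15 ± 1.14; SD, n = 4), the genes named by intensity in this list, are also active outside neurons.

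Transmitter and neuropeptide genes, 14 of them tested, had a median of 0.041, with 8 means above 0 and 6 below, 2 higher and 1 lower on all arrays. The lower one, Slc18a3, passed the filter on dim probes only through P30, and Calcb, 1 of the 2 higher, only through P90. Sst, the peptide somatostatin of neurons and endocrine cells, had -0.19 ± 0.52, and Gal, the neuropeptide galanin, had 0.65 ± 1.03 (SD, n = 4). Nos1, the source of nitric oxide in inhibitory motor neurons, Slc5a7, the choline transporter, Th and Npy were well above background in no channel. Receptors for these transmitters, 9 of them tested, had a median of 0.11, with 7 means above 0 and 2 below, 0 higher and 0 lower on all arrays. Vipr1, a receptor of vasoactive intestinal peptide also made by epithelium, had 0.19 ± 0.52 and Ramp1, a subunit of the receptor for calcitonin gene-related peptide, 0.13 ± 0.86 (SD, n = 4).

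Glial and Schwann cell genes, S100b among the 14 tested, had a median of 0.11, with 9 means above 0 and 5 below, and 3 were higher and 0 lower on all arrays. By array the median was 0.13, 0.31 and 0.13 for a, b and e, and -0.17 on k, the array on which S100b was also below 0. Sox2, Cdh19 and Gjc3 were well above background in no channel. Pmp22 (-0.36 ± 1.05, with the P30 channel saturated on 2 arrays) and Mbp (-0.011 ± 0.33; SD, n = 4), named by intensity, are myelin genes with expression in other cells.

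Genes of GDNF and Ret signalling, 12 of them tested, had a median of 0.051, with 8 means above 0 and 4 below, 1 higher and 0 lower on all arrays. Grb7 (0.32 ± 0.17) and Dok4 (0.13 ± 0.55; SD, n = 4) encode adaptors that bind Ret among other receptors. Gfra2, the co-receptor of neurturin, was well above background in no channel. Of the endothelin 3 axis, 7 genes were tested; their median was -0.088, with 3 means above 0 and 4 below, 0 higher and 0 lower on all arrays. Ece1, the endothelin-converting enzyme, had 0.035 ± 0.52 and Edn1, endothelin 1, had -0.088 ± 0.82 (SD, n = 4). Neurotrophins and their receptors, 7 of them tested, had a median of 0.074, with 5 means above 0 and 2 below, 0 higher and 0 lower on all arrays. Sort1, the sorting receptor sortilin, had 0.38 ± 0.39 and Ntrk2, the receptor of BDNF, had 0.41 ± 1.16 (SD, n = 4).

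The 5 genes with an unadjusted p below 0.05 were chosen for naming after their values were seen, and all 5 were higher at P90 on all 4 arrays. Stmn3, a neuronal stathmin that regulates microtubules, had a log2 P90/P30 of 0.89 ± 0.72 with values of 1.71, 0.067, 1.22 and 0.56 on a, b, e and k. Syp, the synaptic vesicle protein synaptophysin, had 0.44 ± 0.34. Calcb, the beta form of calcitonin gene-related peptide, had 0.61 ± 0.29, but its probe was well above background at P30 on 1 array and at P90 on 3. It thus passed the filter on dim probes only through P90, the side where it was higher. Its place in the counts above rests on that, and it is not the only such gene there. Entpd2, an enzyme that breaks down extracellular ATP and is found on enteric glia, had 0.38 ± 0.26, and Erbb3, a neuregulin receptor of Schwann cell precursors and of epithelium, had 0.42 ± 0.30, with 0.21, 0.16 and 0.10 from its other probes (SD, n = 4 for all). Their limma adjusted p-values were 0.617 for Stmn3 and Calcb and 0.626 for the rest.

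Among markers of other cells that such a scraping can hold, those of matrix, adipocytes, endothelium and smooth muscle spread more between arrays than each nerve and glia list. Of the fibroblast and matrix genes, 12 of 12 had a mean below 0 (median -1.42), but array b went the other way, at 1.39, against -3.04, -1.63 and -2.57 for a, e and k. Of the adipocyte genes, 8 of 8 tested had a mean above 0 (median 1.99), most of it from arrays b and e, at 2.20 and 5.45, against 0.15 and 0.45 for a and k. Endothelial genes had -0.29 over 12 genes, and 0.89 on b against -0.80, -0.27 and -0.91 on a, e and k. Smooth muscle genes had 0.035 over 12 genes, with 0.25, 0.78, 0.24 and -0.58 on a, b, e and k, where array k was the lowest, as it was for S100b. With array b turned, the matrix median was -2.18, the adipocyte median 0.97, the endothelial median -0.67 and the smooth muscle median -0.098. None of these genes passed the limma test after adjustment, and their part in the values of the nerve and glia genes was not tested.

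Of the remaining markers, enteroendocrine genes, of cells that share peptides with neurons, had 0.037 over 16 genes. The T cell, NK cell and dendritic cell list had 0.19 over 11 genes, interstitial cells of Cajal -0.0080 over 3 and melanocytes, another neural crest derivative, 0.050 over 2. Colonic epithelium had 0.091 over 13 genes, but Krt8 and Krt18 were saturated on all 4 arrays at both ages, and Krt19, Krt20, Vil1 and Car1 on all 4 at P30. The epithelial median was -0.34 with saturated spots left out, -0.20 with median centring in place of loess and -0.085 with array b turned, so its direction is not settled. With median centring the enteroendocrine list was at -0.14, smooth muscle at -0.29, Cajal cells at -0.31 and melanocytes at -0.20.

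**Figure D4:**
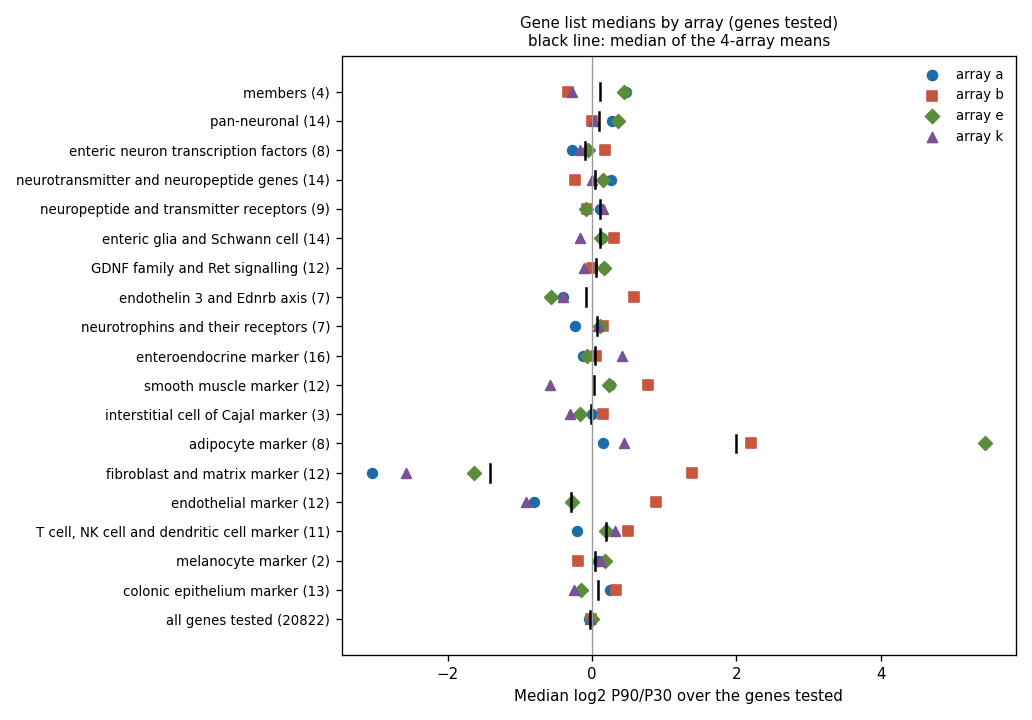
Median log2 P90/P30 of each gene list on arrays a, b, e and k (coloured points) and of the means over the 4 arrays (black line), with the number of genes tested in brackets. The nerve and glia lists lie between -0.57 and 0.58 on every array, while the matrix list reaches -3.04 on array a and the adipocyte list 5.45 on array e.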

How the data were processed

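Messenger RNA was measured in colonic mucosa at P90 and P30 on 4 two-colour arrays. The deposited scanner files give linear intensity (the median signal and local background of each spot and channel), processed signals, their log10 ratio of Cy5 over Cy3 and other marks per spot, such as well above background, per the file headers. Spots were read with Agilent Feature Extraction; its version is 10.5.1.1 according to the headers and 8.5.1.1 per the submitters' processing notes. The deposited value table holds log2 ratios, whose normalization is not given in the sources used here.

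Of 45018 spots per array, 43379 were gene spots. Probes were named through RefSeq accessions of GRCm38.p6 (25097 of 41174), a build other than that of the array's design. Background was corrected with normexp (offset 50), followed by loess within arrays (span 0.3) in limma 3.58.1 under R 4.3.3; outlier spots were left out, saturated ones kept and repeated spots averaged. Ratios were turned to log2 P90/P30 by the labelled dyes. For the normalized log2 levels alone, the quantiles of mean intensity were also equalized between arrays (Aquantile in limma). Probes well above background on at least 3 arrays at P90 or at P30 were kept (27050), and the one of highest mean intensity stood for its gene. The mean was tested against 0 with lmFit and eBayes, adjusted over 20822 genes. The script was tested on simulated data. The arrays shared 1 slide and 1 scan day, which left no batch to test. Alternatives changed the background correction, normalization, filter, probe choice, variance model, array signs and arrays used.

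Text names the 8 members with every probe, the 2 brightest genes tested in each nerve and glia list, the 5 genes nearest to the members' medians, and others as chosen after their values were seen. The 2 brightest genes of the other cell lists are given only within their list's median. Some genes of the lists are not reported here. The members and lists were chosen with earlier results of these data known.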

Additional observations from a re-analysis of the deposited data

Results flagged for a closer look

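The median of the endothelin 3 and Ednrb list was 0.58 on array b, against -0.40, -0.57 and -0.40 for a, e and k. Array b stood apart from the other 3 by Dixon's criterion, which compares the gap to the nearest value with the whole range. The median of the neurotrophin list was -0.23 on array a, against 0.15, 0.11 and 0.086 for b, e and k. By the same criterion array a stood apart, but its ratio of gap to range, 0.8293, was barely over the cutoff. For the endothelin 3 list the ratio was 0.8516. These were 2 of 27 values checked in this way, and some values stand apart by chance in that many.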

How the results depend on the processing

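Under each of 21 alternatives, 0 members passed the adjusted limma test; the adjusted p ranged from 0.496 to 1.0 for Elavl4, 0.664 to 1.0 for S100b, 0.414 to 1.0 for Tubb3 and 0.209 to 1.0 for Uchl1. Uchl1 kept a mean above 0 (0.045 without a to 0.73 with processed signals) under the 20 alternatives that tested it. S100b turned to -0.028 when array e was not turned for its dyes and otherwise stayed above 0. The means near 0 changed sign. Tubb3 was 0.057 with an offset of 10, 0.086 with processed signals, 0.053 with the deposited log ratio, 0.014 with the value table, 0.22 with array weights, 0.45 with a dye term and 0.50 with array b turned. Tubb3 was -0.68 with array e not turned, -0.39 with median centring and -0.19 without b and e. It ran from -0.46 (without e) to 0.33 (without b) when an array was left out (0.23 without k). Elavl4 was 0.065 with processed signals, 0.095 with median centring, 0.025 with array weights, 0.13 with array b turned and 0.070 without b and e, and ran from -0.11 (without a) to 0.062 (without b) when an array was left out. The cause was not tested. The median over members ran from -0.046 (array e not turned) to 0.32 (dye term). The transmitter list median moved by at least its SD between arrays under 3 alternatives, the receptor list under 2 and the pan-neuronal list under 1. The remaining nerve and glia lists stayed within that SD under all 21. Over all genes, 2 were called with an offset of 10, with processed signals, with the deposited log ratio and with the value table, and 0 otherwise. Elavl4 and Uchl1 were too dim for the strict filter, and signal over background limits Ret, Gfap and Vip. The test is paired by array, since each ratio sets a P90 against a P30 RNA, and there was no second block to fit.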
